A study of Homo sapiens with 7 samples.

Results

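Integrins and laminins are the receptors and the matrix proteins through which epithelial cells hold to a basement membrane. The genes described here are 35 integrin and laminin subunits, taken by gene symbol from a count table of 63677 genes. They comprise 25 integrin subunits and 10 laminin subunits, and 27 of the 35 had enough counts to be tested. RNA was sequenced from 7 libraries of T47D, a human cell line of breast carcinoma origin that carries the estrogen receptor. Resistant clone 4 gave 2 libraries, resistant clone 2 gave 2, and the palbociclib-sensitive parental cells gave 3. Both resistant lines had been cultured for 6 months in palbociclib, an inhibitor of the cell cycle kinases CDK4 and CDK6, with the concentration raised from 1 uM to 5 uM. Per the labels, experiments were run in drug-free medium unless stated otherwise, and all 3 lines grew in medium with insulin, EGF and hydrocortisone. Each resistant group is 1 clone, so a difference from parental cells is a difference of that clone, and selection, drug exposure and clonal origin cannot be told apart.

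An integrin is a pair of 1 alpha and 1 beta subunit, and the pair decides what it binds: collagen, laminin, fibronectin, latent TGF-beta or proteins on other cells. A laminin is a trimer of 1 alpha, 1 beta and 1 gamma chain that assembles into the basement membrane outside the cell. In breast epithelium the laminin receptors, among them the ITGA6 and ITGB4 pair of the hemidesmosome, anchor cells to that membrane, and integrin signals feed into growth and survival. ITGB1 is the common beta chain of many alpha subunits, and ITGAV is the common alpha chain of ITGB5, ITGB6 and ITGB8.

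The results below turn most on 6 subunits, ITGAM, LAMA4, ITGA10, LAMB1, ITGA2 and ITGB6, and the 250 bases before the annotated start of each are printed to show what kind of promoter each has. They are RefSeq sequences of build GRCh38.p14, written 5′ to 3′ on the gene's own strand, and the capitals mark every GC box, searched as GGGCGG on both strands.
ITGAM promoter, chr16:31259725-31259974, plus strand: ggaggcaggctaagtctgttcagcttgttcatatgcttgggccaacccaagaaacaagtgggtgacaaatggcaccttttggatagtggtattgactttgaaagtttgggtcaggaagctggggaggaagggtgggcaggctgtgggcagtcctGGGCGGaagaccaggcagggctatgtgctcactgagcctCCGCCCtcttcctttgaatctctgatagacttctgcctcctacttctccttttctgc
LAMA4 promoter, chr6:112254568-112254817, minus strand: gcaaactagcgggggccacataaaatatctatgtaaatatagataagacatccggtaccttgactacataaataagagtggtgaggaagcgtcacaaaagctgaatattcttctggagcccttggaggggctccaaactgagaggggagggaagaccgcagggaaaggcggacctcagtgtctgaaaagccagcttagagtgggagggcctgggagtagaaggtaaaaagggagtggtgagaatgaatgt
ITGA10 promoter, chr1:145910051-145910300, minus strand: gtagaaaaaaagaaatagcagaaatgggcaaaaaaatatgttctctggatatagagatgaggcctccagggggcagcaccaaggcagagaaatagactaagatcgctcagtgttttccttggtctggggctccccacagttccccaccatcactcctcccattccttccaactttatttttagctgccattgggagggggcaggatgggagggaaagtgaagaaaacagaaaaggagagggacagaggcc
LAMB1 promoter, chr7:108003162-108003411, minus strand: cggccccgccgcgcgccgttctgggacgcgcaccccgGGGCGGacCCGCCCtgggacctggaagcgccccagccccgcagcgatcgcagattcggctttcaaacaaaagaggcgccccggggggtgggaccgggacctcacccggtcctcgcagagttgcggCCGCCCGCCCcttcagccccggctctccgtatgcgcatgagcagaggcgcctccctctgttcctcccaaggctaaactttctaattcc
ITGA2 promoter, chr5:52989102-52989351, plus strand: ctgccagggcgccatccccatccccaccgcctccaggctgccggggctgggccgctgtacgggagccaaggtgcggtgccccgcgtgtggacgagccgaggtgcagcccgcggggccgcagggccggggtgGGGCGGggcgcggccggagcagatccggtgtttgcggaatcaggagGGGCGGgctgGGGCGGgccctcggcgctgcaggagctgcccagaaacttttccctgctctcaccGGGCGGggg
ITGB6 promoter, chr2:160200273-160200522, minus strand: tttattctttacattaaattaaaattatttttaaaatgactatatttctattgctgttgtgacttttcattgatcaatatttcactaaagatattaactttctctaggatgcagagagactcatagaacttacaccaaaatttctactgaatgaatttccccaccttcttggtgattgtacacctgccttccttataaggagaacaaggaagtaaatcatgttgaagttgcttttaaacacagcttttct
The ITGA2 and LAMB1 windows hold 4 GC boxes each, with G and C at 76.4% and 70.4% of bases, and 26 and 28 CpG pairs. The ITGAM window holds 2 GC boxes at 53.2% G and C. The LAMA4 and ITGA10 windows, each 48.4% G and C, and the ITGB6 window, 30.0% G and C, hold none. Over the tables' 32 promoter windows of 25 member genes, 17 (53.1%) held a GC box, against 42.6% of 35116 windows of all genes. Some genes gave several windows, and some LAMB3 windows overlap and hold the same GC box, so windows are not independent. The median share of G and C was 60.2% in member windows and 58.0% in all windows. The AP-1 motif TGANTCA was in 2 member windows (6.25%) and in 6.57% of all windows, and the STAT motif TTCNNNGAA was in 2 member windows (6.25%) and in 6.57% of all. These matches are letters in a window, and no binding was measured.

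Library totals were 12593774 and 14739350 counts in clone 4, 10997625 and 15677914 in clone 2, and 12436758 to 17524621 in parental cells. Across genes, log2 levels correlated at 0.987 to 0.994 between libraries of a group and at 0.934 to 0.963 between libraries of different groups. The labels call the libraries biological replicates without naming separate cultures, so p-values measure the spread between these libraries, which may be technical. Each of the 8 luminal epithelial markers was expressed, with a summed level of 11243 to 12575 CPM in clone 4, 9716 to 10169 in clone 2 and 13945 to 17622 in parental cells. Levels in CPM are counts relative to the library's total, scaled by TMM, a correction for library composition.

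In each of the 3 comparisons 14 of the 27 tested subunits were called, meaning a Benjamini-Hochberg adjusted p below 0.05 in edgeR's quasi-likelihood test over 17502 genes. In clone 4 against parental cells 6 subunits were higher and 8 lower, in clone 2 against parental cells 11 were higher and 3 lower, and in clone 2 against clone 4 12 were higher and 2 lower. Over all genes tested, 44.4% were called in clone 4 against parental cells, 42.5% in clone 2 against parental cells and 36.5% between the clones. By direction, 22.1% of all genes were higher and 22.3% lower in clone 4, 21.7% higher and 20.8% lower in clone 2, and 19.6% higher and 17.0% lower in clone 2 against clone 4. The median log2 fold change of the tested subunits was 0.12 in clone 4, 0.31 in clone 2 and 0.46 between the clones, against 0.01, 0.02 and 0.03 over all genes tested. In total 20 subunits were called in at least 1 comparison, and 9 of them with at least a 2-fold difference. The matching shares of all genes were not computed. These counts therefore only set which subunits are described in full, and show no trait of the subunits. Without 1 library the counts in clone 2 against parental cells fell to 6 higher (without either clone 2 library) and 1 lower (without either clone 2 library, or without parental replicate 1 or 3). Without either clone 2 library, 7 were higher between the clones.

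**Figure D1:**
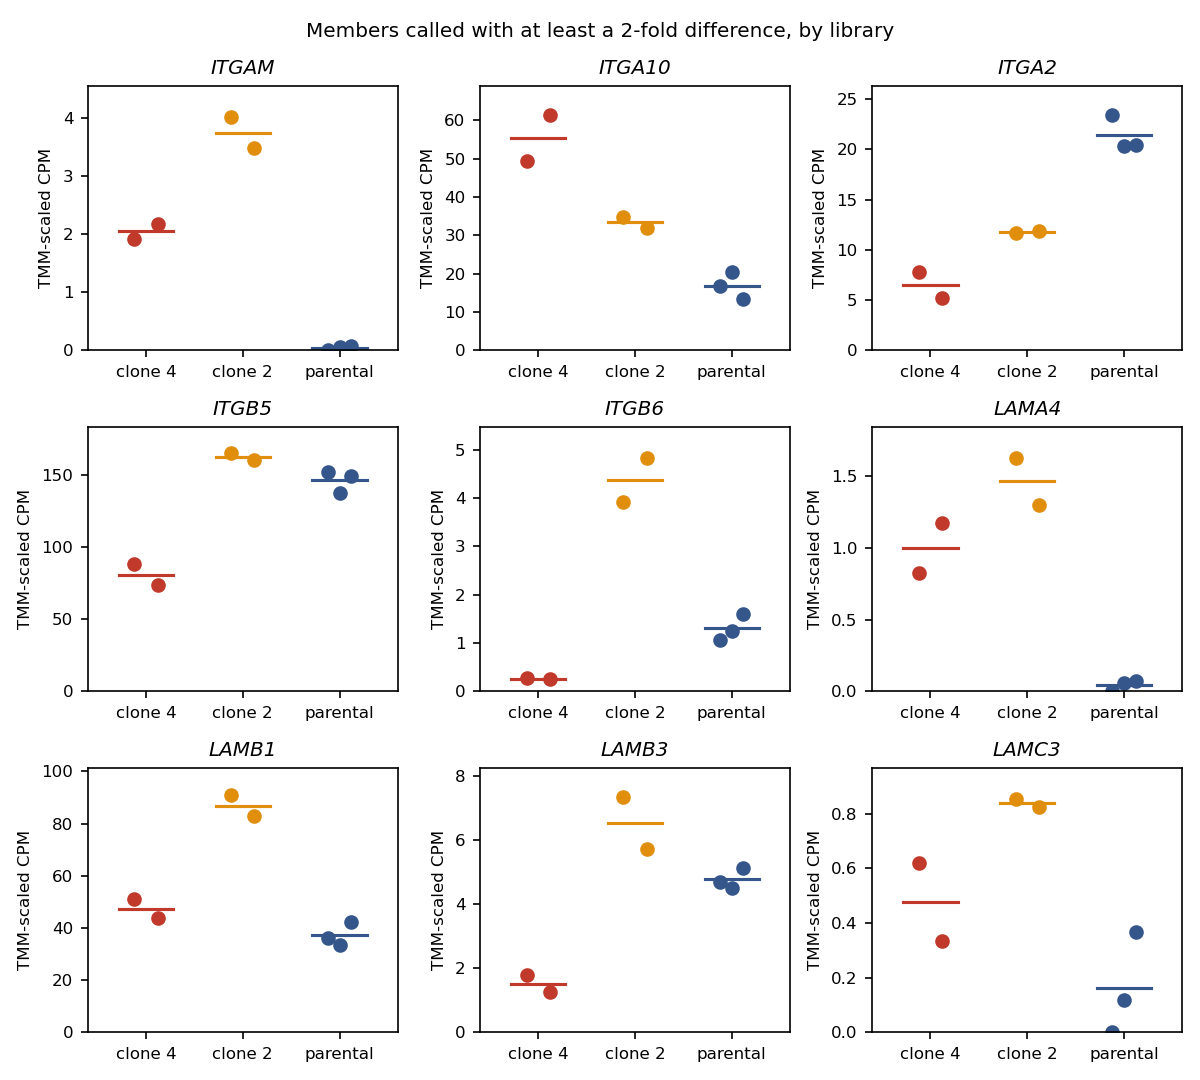
TMM-scaled CPM (vertical axis, from 0) of the 9 subunits called with at least a 2-fold difference in some comparison, in the clone 4, clone 2 and parental libraries; each point is a library and each bar the group mean. ITGAM and LAMA4 lie near 0 in all parental libraries, ITGB6 lies lowest in clone 4 and highest in clone 2, and the ITGA10 and ITGA2 levels run in opposite order over the 3 groups.

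Markers of basal and myoepithelial cells, the breast cells that rest on the basement membrane, were read beside the subunits. The 8 such markers summed to 180 and 259 CPM in clone 4 and 265 and 270 in clone 2, against 90.8 to 148 in parental cells, and most of each sum was KRT15. Of the 5 tested, 2 were higher and 2 lower in clone 4 (22.1% and 22.3% of all genes), and 3 higher and 1 lower in clone 2 (21.7% and 20.8%). KRT15, a basal keratin, was higher by 1.32 on the log2 scale in clone 4 (edgeR adjusted p = 0.00212) and by 1.57 in clone 2 (edgeR adjusted p = 0.000822). KRT5, the keratin that defines basal cells, had 7 and 2 counts in clone 4 and 10 and 20 in clone 2, against 0, 1 and 0 in parental cells. It passed the filter on low counts through clone 2 alone, which favours a higher call there. It was called higher in both, though in clone 4 not without replicate 1 of that clone (edgeR adjusted p = 0.229). TP63, a basal cell transcription factor, was called higher in clone 2 (log2 fold change 2.18, edgeR adjusted p = 0.00184), a call lost without clone 2 replicate 2 (0.055). In clone 4 TP63 went the other way, at a log2 fold change between -0.99 and -0.85, and was not called. Of the contractile genes, ACTA2 was lower in both clones, at -0.85 in clone 4 and -0.55 in clone 2, and MYH11 was lower in clone 4, at -0.99. KRT14, KRT17 and KRT6A had at most 8 counts in any library and were not tested. Of the 8 luminal markers, 1 was higher and 2 lower in clone 4, and 0 higher and 4 lower in clone 2, beside the same shares of all genes. KRT8 was lower in both clones, at -0.96 in clone 4 and -1.32 in clone 2. CDH1 was lower in clone 4, and KRT18 and ESR1 were lower in clone 2, where 2 of the 8, KRT8 among them, fell at least 2-fold. EPCAM was higher in clone 4 and FOXA1 lower in clone 2, each by at most 0.30, and each of these calls was lost without some library. The part of these transcripts in the subunit differences was not tested.

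Among the integrin alpha subunits that bind collagen, ITGA10 was higher and ITGA2 lower in both clones. ITGA10, a collagen receptor subunit described mainly in cartilage, was at 49.46 and 61.44 CPM in clone 4 and 34.81 and 32.04 in clone 2, against 16.67, 20.40 and 13.49 in parental cells. No 2 groups overlapped, and clone 4 was highest. The log2 fold change over parental cells was 1.71 in clone 4 (SE 0.15, edgeR adjusted p = 1.47e-06) and 0.98 in clone 2 (SE 0.16, edgeR adjusted p = 0.000231). Clone 2 lay 0.73 log2 units below clone 4 (log2 fold change -0.73, SE 0.16, edgeR adjusted p = 0.00374). A gene on the opposite strand, AC243547.1, overlaps ITGA10 and had 36 and 48 counts in clone 4, 20 and 30 in clone 2 and 12 to 16 in parental cells. With the strand setting unknown, reads of the 2 genes cannot be told apart where they overlap. The same holds for each of the 10 subunits that overlap another gene with at least 100 counts in all, on the opposite strand for all but ITGA1, namely ITGA1, ITGA7, ITGA9, ITGA10, ITGAE, ITGB4, ITGB7, ITGB8, LAMA5 and LAMB1.

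ITGA2, whose product with ITGB1 is the collagen and laminin receptor of epithelia and platelets, went the other way. It was at 7.83 and 5.18 CPM in clone 4 and 11.69 and 11.92 in clone 2, against 23.43, 20.34 and 20.38 in parental cells. Every clone library lay below every parental library, and clone 4 lay below clone 2. The log2 fold change over parental cells was -1.70 in clone 4 (SE 0.17, edgeR adjusted p = 4.85e-06) and -0.85 in clone 2 (SE 0.16, edgeR adjusted p = 0.000784), and clone 2 was 0.85 above clone 4 (SE 0.19, edgeR adjusted p = 0.00385). These calls of ITGA10 and ITGA2 were kept without each library in turn. Both are compared per length in RPKM (CPM per kilobase of exon). The ratio of ITGA10 to ITGA2, a description chosen after the values were seen, was 7.90 and 14.9 in clone 4 and 3.73 and 3.36 in clone 2, against 0.890, 1.26 and 0.828 in parental cells. The other collagen-binding subunits, ITGA1 and ITGA11, had 39 and 3 counts over all 7 libraries and were not tested.

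The shared chains ITGB1 and ITGAV were lower in both clones. ITGB1, the partner of most collagen, fibronectin and laminin-binding alpha chains, was at 116.91 and 102.01 CPM in clone 4 and 138.75 and 142.48 in clone 2, against 179.78, 153.86 and 200.90 in parental cells. All clone libraries lay below all parental libraries. Relative to parental cells it was at -0.70 on the log2 scale in clone 4 (SE 0.12, edgeR adjusted p = 0.000378) and -0.34 in clone 2 (SE 0.12, edgeR adjusted p = 0.0318). ITGAV, which binds vitronectin and latent TGF-beta with its beta partners, was at 37.57 and 27.13 CPM in clone 4 and 43.52 and 45.55 in clone 2, against 63.61, 50.83 and 70.88 in parental cells. These groups did not overlap either, and the log2 fold change was -0.93 in clone 4 (SE 0.16, edgeR adjusted p = 0.000353) and -0.47 in clone 2 (SE 0.15, edgeR adjusted p = 0.0236). The clone 4 calls were kept without each library. In clone 2 the ITGB1 and ITGAV calls were lost without parental replicate 1 (edgeR adjusted p = 0.0746 and 0.0649), parental replicate 3 (0.07 and 0.0684), clone 2 replicate 1 (0.166 and 0.123) or clone 2 replicate 2 (0.131 and 0.0907).

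The beta chains that pair with ITGAV separated the clones. ITGB6, an epithelial chain whose pair with ITGAV activates latent TGF-beta, was at 0.27 and 0.25 CPM in clone 4 and 3.93 and 4.84 in clone 2, against 1.07, 1.25 and 1.61 in parental cells. Clone 4 lay below every parental library and clone 2 above every one. The counts behind these levels were 4 and 3 in clone 4, 46 and 82 in clone 2, and 13, 21 and 22 in parental cells. The log2 fold change was -2.28 in clone 4 (SE 0.45, edgeR adjusted p = 0.00116), 1.74 in clone 2 (SE 0.25, edgeR adjusted p = 0.000105) and 4.02 in clone 2 against clone 4 (SE 0.39, edgeR adjusted p = 1.13e-05). Each of these calls was kept without any 1 library. ITGB6 passed the filter on low counts through the clone 2 and parental libraries alone, with both clone 4 libraries under its cutoff, so it was tested only because the other groups were higher.

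ITGB5, a vitronectin receptor chain at a far higher level, was at 88.13 and 73.71 CPM in clone 4 and 165.37 and 160.59 in clone 2, against 152.14, 137.72 and 149.67 in parental cells. Clone 4 lay below all parental libraries, and clone 2 lay slightly above them. Set against parental cells, the log2 fold change was -0.85 in clone 4 (SE 0.11, edgeR adjusted p = 2.92e-05) and 0.15 in clone 2 (SE 0.10, edgeR adjusted p = 0.247), with clone 2 above clone 4 by 1.01 (SE 0.12, edgeR adjusted p = 3.48e-05). In RPKM the ratio of ITGB6 to ITGB5, also chosen after the values were seen, was 0.00429 and 0.00467 in clone 4 and 0.0326 and 0.0414 in clone 2, against 0.00970, 0.0124 and 0.0148 in parental cells. ITGB6 was a small share of ITGB5 in every library.

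ITGB8, the other TGF-beta-activating partner of ITGAV, was at 5.56 and 5.84 CPM in clone 4 and 5.29 and 6.14 in clone 2, against 3.47, 4.75 and 3.30 in parental cells. It was called higher in clone 4 (log2 fold change 0.55, SE 0.21, edgeR adjusted p = 0.0451) and clone 2 (0.57, SE 0.21, edgeR adjusted p = 0.0406). Neither call was kept by DESeq2 (adjusted p = 0.109 in clone 4 and 0.125 in clone 2). Both were also lost with the replicate number as a block and with no filter beyond 1 count. The clone 4 call was lost without clone 4 replicate 1 (0.1) or 2 (0.157), parental replicate 1 (0.124) or 3 (0.104), or clone 2 replicate 1 (0.0766) or 2 (0.0749). The clone 2 call was lost without parental replicate 1 (0.114) or 3 (0.0908), or clone 2 replicate 1 (0.0971) or 2 (0.307); each value in brackets is an edgeR adjusted p. ITGB3, the other common partner of ITGAV, had 2 counts over all libraries.

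Among the laminin receptors, ITGA6 moved in opposite directions in the clones. ITGA6, the alpha chain of the hemidesmosomal receptor, was at 14.84 and 13.77 CPM in clone 4 and 27.99 and 28.14 in clone 2, against 21.86, 18.03 and 20.67 in parental cells. No groups overlapped. Its log2 fold change was -0.49 in clone 4 (SE 0.13, edgeR adjusted p = 0.00756), 0.48 in clone 2 (SE 0.12, edgeR adjusted p = 0.00596) and 0.97 in clone 2 against clone 4 (SE 0.14, edgeR adjusted p = 0.000171). The clone 4 call was lost without clone 4 replicate 2 (edgeR adjusted p = 0.052), and the clone 2 call without clone 2 replicate 1 (0.0608) or 2 (0.0711). The difference between the clones was kept without each library.

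Its partner ITGB4, the beta chain that links to keratin filaments, was at 99.60 and 110.36 CPM in clone 4 and 159.14 and 137.23 in clone 2, against 105.77, 105.99 and 146.59 in parental cells. Both clones overlapped the parental range, and neither was called against it, at log2 fold changes of -0.19 in clone 4 (SE 0.14) and 0.31 in clone 2 (SE 0.14). Without parental replicate 3, ITGB4 was called higher in clone 2 (log2 fold change 0.48, edgeR adjusted p = 0.00248). Clone 2 was above clone 4 by 0.50 (SE 0.15, edgeR adjusted p = 0.0212), a call lost without clone 4 replicate 1 (0.117) or 2 (0.0515) or clone 2 replicate 1 (0.165). ITGA3, the other laminin receptor chain of epithelia, was at 38.26 and 43.08 CPM in clone 4 and 39.08 and 37.94 in clone 2, against 38.12, 35.17 and 36.94 in parental cells. It was not called in any comparison, with log2 fold changes of 0.15 in clone 4 and 0.07 in clone 2 over parental cells (SE 0.11 each). The fibronectin receptor chain ITGA5 was not called either, at log2 fold changes of -0.23 in clone 4 (SE 0.14) and 0.11 in clone 2 (SE 0.14).

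Other alpha chains that were tested and not called were lower in level. ITGA7, a laminin receptor chain of muscle, was at 4.53 and 7.26 CPM in clone 4 and 6.91 and 7.26 in clone 2, against 5.78, 5.40 and 4.62 in parental cells, and its log2 fold change over parental cells was 0.15 in clone 4 (SE 0.22) and 0.43 in clone 2 (SE 0.21). ITGA2B, the platelet fibrinogen receptor chain, was at 3.16 and 5.43 CPM in clone 4 and 5.21 and 4.31 in clone 2, against 4.21, 3.68 and 3.81 in parental cells. ITGA9, which binds tenascin, was at 0.89 and 0.42 CPM in clone 4 and 0.51 and 0.53 in clone 2, against 0.58, 1.13 and 1.03 in parental cells. Clone 4 overlapped the parental range in all 3, and clone 2 lay outside it, below for ITGA9 and above for the other two.

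The subunits best known from leukocytes were present at low levels. ITGAM, the alpha chain of a complement receptor of myeloid cells, was at 1.92 and 2.17 CPM in clone 4 and 4.01 and 3.48 in clone 2, against 0.00, 0.06 and 0.07 in parental cells. The counts were 28 and 26 in clone 4, 47 and 59 in clone 2, and 0, 1 and 1 in parental cells, and no clone library overlapped a parental library. As a ratio of summed counts with an exact 95% interval for counting error, ITGAM was 43.4-fold higher in clone 4 (11.4 to 367) and 78.8-fold higher in clone 2 (21.3 to 659). The edgeR adjusted p was 5.34e-06 in clone 4 and 3.99e-07 in clone 2. Clone 2 was above clone 4 by 0.87 on the log2 scale (SE 0.28, edgeR adjusted p = 0.026), lost without clone 4 replicate 1 (0.117) or 2 (0.0662) or clone 2 replicate 1 (0.165) or 2 (0.1). ITGAM passed the filter on low counts through the clones alone, so with parental counts this low it was tested only because the clones were higher.

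The obligate partner of ITGAM and ITGAL, ITGB2, did not follow it. ITGB2 was at 1.85 and 1.34 CPM in clone 4 and 1.19 and 1.12 in clone 2, against 1.07, 1.25 and 1.47 in parental cells, with both clones overlapping the parental range. On the log2 scale it differed from parental cells by 0.35 in clone 4 (SE 0.31, edgeR adjusted p = 0.385) and -0.13 in clone 2 (SE 0.33, edgeR adjusted p = 0.767). The antisense gene ITGB2-AS1, which overlaps it, had 9 and 21 counts in clone 4 and 12 and 19 in clone 2, against 2, 2 and 3 in parental cells. With the strand setting unknown, their reads cannot be told apart where the 2 genes overlap. That overlap is of whole gene spans, introns included. ITGAL, the alpha chain of the lymphocyte receptor for ICAM1, was at 6.59 and 6.51 CPM in clone 4 and 9.22 and 6.67 in clone 2, against 6.19, 4.63 and 4.105 in parental cells. It was called in clone 2 (log2 fold change 0.67, SE 0.21, edgeR adjusted p = 0.02) and not in clone 4 (0.41, SE 0.22, edgeR adjusted p = 0.142). The clone 2 call was lost without parental replicate 2 (0.0652) or 3 (0.0533) or clone 2 replicate 1 (0.277).

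ITGAE and ITGB7, which pair as the receptor of intraepithelial lymphocytes for E-cadherin, were each called in 1 clone. ITGAE was at 19.23 and 19.45 CPM in clone 4 and 14.25 and 15.16 in clone 2, against 11.88, 14.18 and 14.66 in parental cells. It was called in clone 4 (log2 fold change 0.51, SE 0.13, edgeR adjusted p = 0.00736). It was lower in clone 2 than in clone 4 (log2 fold change -0.39, edgeR adjusted p = 0.0499), a call that 5 of the 7 fits without a library lost. Those were the fits without either clone 4 library (0.0991 and 0.114), either clone 2 library (0.248 and 0.17) or parental replicate 2 (0.0557). ITGB7 was at 3.37 and 5.84 CPM in clone 4 and 6.40 and 6.61 in clone 2, against 3.47, 4.03 and 3.22 in parental cells. In clone 2 it was higher by 0.86 on the log2 scale (SE 0.23, edgeR adjusted p = 0.00825), a call lost without clone 2 replicate 2 (0.0709). In clone 4 it was 0.34 (SE 0.24, edgeR adjusted p = 0.278), but 0.69 and called without clone 4 replicate 1 (0.0372). ITGB7 overlaps ZNF740, a more abundant opposite-strand gene with 479 and 376 counts in clone 4 and 532 and 731 in clone 2, against 500 to 743 in parental cells.

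The levels of leukocyte markers were read beside these subunits. The 14 leukocyte markers summed to 9.18 and 10.8 CPM in clone 4 and 9.03 and 10.4 in clone 2, against 6.27 to 7.70 in parental cells, and 4 of them were tested. CD68, the marker called higher in clone 4, had 67 and 55 counts in clone 4 and 33 and 29 in clone 2, against 28, 29 and 25 in parental cells. TYROBP and CD2 had 0 counts in every library, and PTPRC, the common leukocyte antigen, had 0 or 1. In bulk RNA, fewer cells with a transcript and less transcript per cell cannot be told apart.

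Of the laminin alpha chains, LAMA4 was detected in the clones and nearly absent from parental cells. LAMA4, a chain of vascular and muscle basement membranes, was at 0.82 and 1.17 CPM in clone 4 and 1.62 and 1.30 in clone 2, against 0.00, 0.06 and 0.07 in parental cells. These levels rest on 12 and 14 counts in clone 4 and 19 and 22 in clone 2, against 0, 1 and 1 in parental cells. The ratio of summed counts was 20.9 in clone 4 (exact 95% interval 5.23 to 182; edgeR adjusted p = 0.000262) and 30.5 in clone 2 (7.92 to 260; edgeR adjusted p = 4.74e-05). LAMA4 also passed the count filter through the clones alone. The endothelial markers PECAM1, TEK and EMCN had 0 counts in every library, and the 8 endothelial markers summed to 2.68 and 3.17 CPM in clone 4 and 1.59 and 2.22 in clone 2, against 0.495 to 0.660 in parental cells. The 1 endothelial marker with enough counts to test was the tight junction gene CLDN5, which had 33 and 31 counts in clone 4 and 12 and 13 in clone 2, against 5 in each parental library. Like LAMA4, it passed the count filter through the clones alone. It was higher by 2.75 on the log2 scale in clone 4 (edgeR adjusted p = 3.87e-05) and by 1.29 in clone 2 (edgeR adjusted p = 0.0259), the second lost without parental replicate 2 (0.0767) or clone 2 replicate 1 (0.178), and not called by DESeq2 (adjusted p = 0.106). The part of such transcripts in the LAMA4 difference was not tested.

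LAMA5, the main alpha chain of adult epithelial basement membranes, was at 331.91 and 505.30 CPM in clone 4 and 635.54 and 575.58 in clone 2, against 449.58, 450.72 and 561.74 in parental cells. The clone 4 libraries lay on both sides of the parental replicates 1 and 2, and both clone 2 libraries lay above all parental libraries. Neither clone was called, at log2 fold changes of -0.22 in clone 4 (SE 0.16, edgeR adjusted p = 0.271) and 0.31 in clone 2 (SE 0.15, edgeR adjusted p = 0.117). Leaving out 1 library gave a call in clone 4 without clone 4 replicate 2 (-0.55, edgeR adjusted p = 0.0117). In clone 2 it gave one without clone 4 replicate 1 (0.0401) or 2 (0.0407) or parental replicate 3 (0.0416). Clone 2 was above clone 4 by 0.53 (SE 0.17, edgeR adjusted p = 0.0254), lost without clone 4 replicate 1 (0.215) or clone 2 replicate 1 (0.143) or 2 (0.0636). The opposite-strand gene ADRM1 overlaps LAMA5 and had 2764 and 2661 counts in clone 4 and 2846 and 3775 in clone 2, against 1682 to 2613 in parental cells. LAMA3, the alpha chain of the hemidesmosomal laminin, was at 47.47 and 49.34 CPM in clone 4 and 43.86 and 42.24 in clone 2, against 48.68, 49.70 and 35.48 in parental cells, and was not called in any comparison. LAMA1 and LAMA2 had 38 and 13 counts over all libraries and were not tested.

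Among the laminin chains, the beta chains LAMB1 and LAMB3 had the largest called differences between the clones. LAMB1, the beta chain of embryonic and many epithelial laminins, was at 50.97 and 43.99 CPM in clone 4 and 90.96 and 82.77 in clone 2, against 36.14, 33.57 and 42.44 in parental cells. No groups overlapped, though clone 4 replicate 2 lay close to parental replicate 3. Against parental cells the log2 fold change was 0.35 in clone 4 (SE 0.12, edgeR adjusted p = 0.0326) and 1.22 in clone 2 (SE 0.12, edgeR adjusted p = 3.35e-06), and clone 2 was above clone 4 by 0.87 (SE 0.13, edgeR adjusted p = 0.00026). The clone 4 call was lost without clone 4 replicate 1 (0.215), parental replicate 1 (0.0975) or 2 (0.111) or clone 2 replicate 1 (0.0653) or 2 (0.0638). The clone 2 calls were kept without each library. The opposite-strand gene DLD overlaps LAMB1 and had 920 and 522 counts in clone 4 and 888 and 1241 in clone 2, against 943 to 1064 in parental cells.

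LAMB3, the beta chain that trimerizes with LAMA3, was at 1.79 and 1.25 CPM in clone 4 and 7.34 and 5.72 in clone 2, against 4.70, 4.51 and 5.13 in parental cells. Clone 4 lay below, and clone 2 above, every parental library. It differed by a log2 fold change of -1.63 from parental cells in clone 4 (SE 0.25, edgeR adjusted p = 0.000174), 0.44 in clone 2 (SE 0.20, edgeR adjusted p = 0.0904) and 2.07 in clone 2 against clone 4 (SE 0.26, edgeR adjusted p = 7.4e-05). In RPKM the ratio of LAMB3 to LAMA3, chosen after the values were seen, was 0.118 and 0.0795 in clone 4 and 0.524 and 0.424 in clone 2, against 0.302, 0.284 and 0.453 in parental cells. LAMB2, the beta chain of synaptic, kidney and adult epithelial laminins, was at 241.10 and 274.98 CPM in clone 4 and 309.41 and 300.00 in clone 2, against 235.64, 245.67 and 204.35 in parental cells. It was called in clone 2 (log2 fold change 0.41, SE 0.11, edgeR adjusted p = 0.00637), a call lost without clone 2 replicate 1 (0.083) or 2 (0.055).

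LAMC1, the gamma chain of most laminins, was lower in clone 4. It was at 37.23 and 33.06 CPM in clone 4 and 51.54 and 53.86 in clone 2, against 55.77, 52.55 and 77.69 in parental cells. Clone 2 overlapped the parental range and clone 4 lay below it. Against parental cells the log2 fold change was -0.82 in clone 4 (SE 0.15, edgeR adjusted p = 0.000777) and -0.23 in clone 2 (SE 0.15, edgeR adjusted p = 0.224). Clone 2 was above clone 4 by 0.58 (SE 0.17, edgeR adjusted p = 0.0141), lost without clone 4 replicate 2 (0.103) or clone 2 replicate 2 (0.0836). In RPKM the ratio of LAMB1 to LAMC1, chosen after the values were seen, was 1.41 and 1.37 in clone 4 and 1.82 and 1.59 in clone 2, against 0.669, 0.660 and 0.564 in parental cells. LAMB1 was thus the more abundant of the 2 per length in the clones and the less abundant in parental cells.

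LAMC3, a rarer gamma chain, had 9 and 4 counts in clone 4 and 10 and 14 in clone 2, against 0, 2 and 5 in parental cells. It passed the count filter through clone 2 alone. The call in clone 2 (log2 fold change 2.29, SE 0.66, edgeR adjusted p = 0.0131) was lost without parental replicate 2 (0.0512) or clone 2 replicate 1 (0.0591) or 2 (0.0795). Without parental replicate 3, the library with 5 counts, the log2 fold change was 3.44. In clone 4 it was 1.52 (SE 0.76, edgeR adjusted p = 0.12), and 2.67 without that library (edgeR adjusted p = 0.0276).

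**Figure D2:**
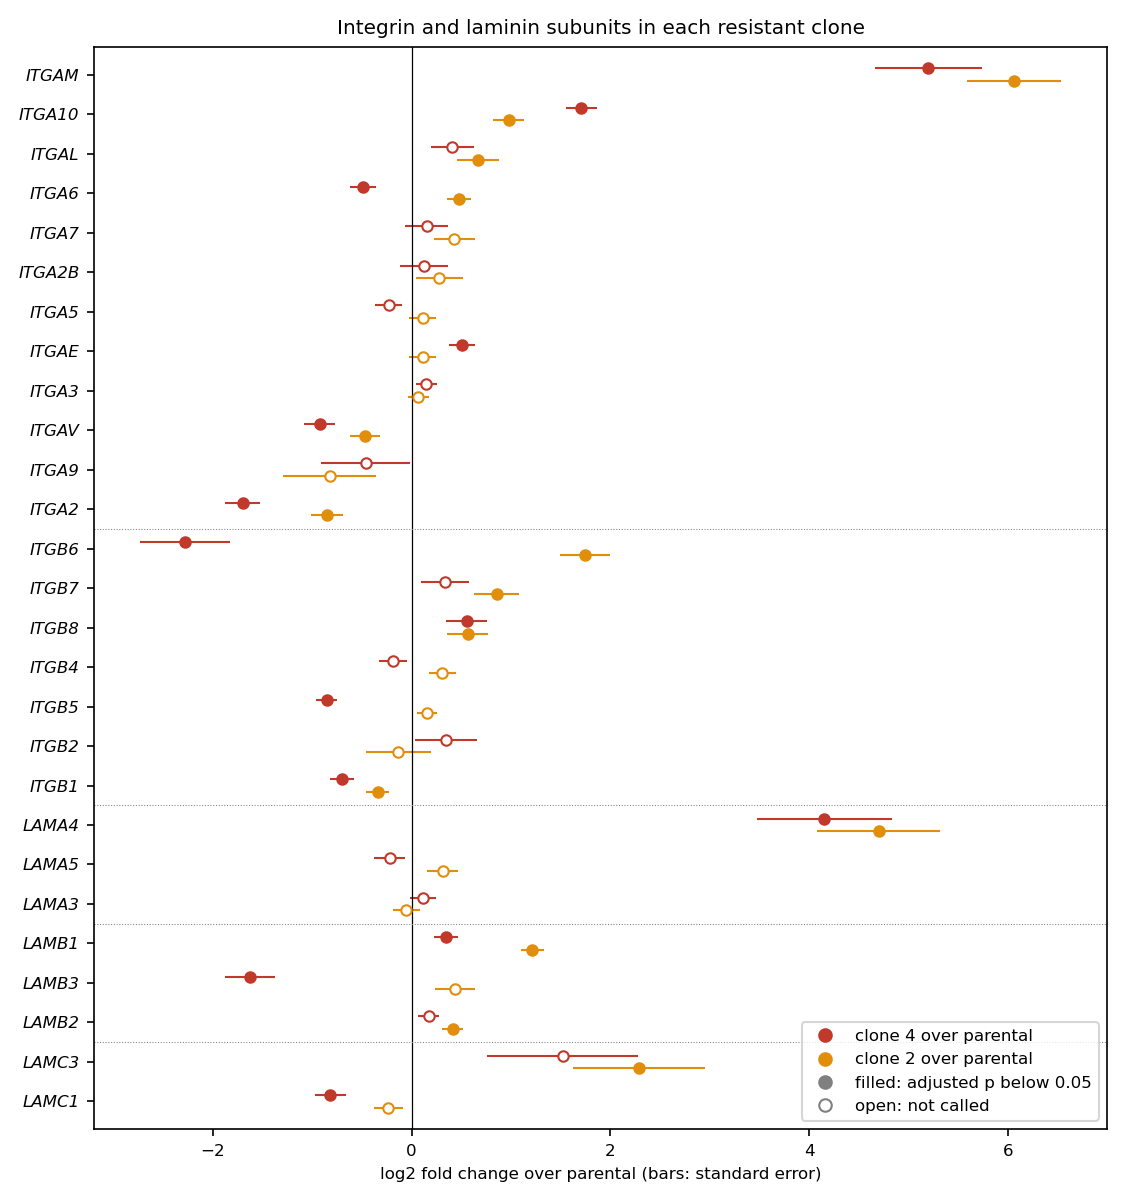
log2 fold change over parental cells (horizontal axis, bars are standard errors) of the 27 tested subunits in clone 4 and clone 2, grouped as integrin alpha, integrin beta, laminin alpha, laminin beta and laminin gamma; filled points have an adjusted p below 0.05. ITGAM and LAMA4 stand far to the right in both clones, at 5.20 and 4.15 in clone 4, and ITGB6 and ITGA6 are filled on opposite sides of 0.

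Both clones were set against the same 3 parental libraries, so their fold changes are not independent. Of the 27 tested subunits 5 were higher in both clones (18.5%, against 10.96% of all genes tested), namely ITGA10, ITGAM, ITGB8, LAMA4 and LAMB1. The 3 lower in both (11.1%, against 10.7%) were ITGA2, ITGAV and ITGB1, and the 2 called in opposite directions (7.41%, against 2.58%) were ITGA6 and ITGB6. Some of these calls were lost without some library: ITGB8 and ITGA6 in both clones, LAMB1 in clone 4, and ITGAV and ITGB1 in clone 2. ITGAM and LAMA4 could pass the count filter through the clones alone, which favours their place among those higher in both, and ITGB6 passed it through clone 2 and parental libraries, which favours a lower call in clone 4. Of the integrin subunits 19 of 25 were tested, with 4 higher and 6 lower in clone 4 (22.1% and 22.3% of all genes) and 7 higher and 3 lower in clone 2 (21.7% and 20.8% of all genes). Of the laminin subunits 8 of 10 were tested, with 2 higher and 2 lower in clone 4 and 4 higher and 0 lower in clone 2, beside the same shares of all genes. Those higher include LAMA4, in both clones, and LAMC3, in clone 2, which passed the count filter through clone 2 alone. The integrin counts hold ITGAM and ITGB6 in the same way. These counts, and those over all 27 subunits, are therefore not directly comparable with the shares of all genes. Of the laminin subunits lower in clone 2, 0 had an unadjusted edgeR p below 0.05 and 0 were called by DESeq2. The 7 tested subunits called in no comparison were ITGA2B, ITGA3, ITGA5, ITGA7, ITGA9, ITGB2 and LAMA3. Missing the threshold does not show that they were equal in the groups.

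Per length, the same few chains led in all groups. LAMB2 averaged 37.6 ± 3.5 RPKM in clone 4, 44.4 ± 0.97 in clone 2 and 33.3 ± 3.1 in parental cells (SD, n = 2, 2 and 3). LAMA5 averaged 29.3 ± 8.6 RPKM in clone 4, 42.4 ± 3.0 in clone 2 and 34.1 ± 4.5 in parental cells (SD, n = 2, 2 and 3). The ranges of LAMB2 and LAMA5 overlapped in each of the 3 groups, so their order is within the spread. ITGB1, ITGB4 and ITGB5 held places 3 to 5 in every group. Among them ITGB5 stood at 12.6 ± 1.6 RPKM in clone 4 (place 5) and 25.3 ± 0.52 in clone 2 (place 3), against 22.7 ± 1.2 in parental cells (place 4).

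The collagen receptor chains changed places in that order. ITGA10 stood at 8.77 ± 1.34 RPKM and place 6 in clone 4 and at 5.29 ± 0.31 and place 9 in clone 2, against 2.67 ± 0.55 and place 13 in parental cells. ITGA2 stood at 0.822 ± 0.237 RPKM and place 18 in clone 4 and at 1.49 ± 0.02 and place 15 in clone 2, against 2.70 ± 0.22 and place 12 in parental cells. In parental cells the 2 were neighbours within their spread. Summed over the 25 integrin subunits the level was 76.6 and 75.1 RPKM in clone 4 and 105 and 101 in clone 2, against 97.6, 89.4 and 107 in parental cells. Over the 10 laminin subunits it was 72.9 and 88.5 RPKM in clone 4 and 112 and 105 in clone 2, against 81.2, 82.1 and 87.1 in parental cells. The integrin sum was thus lowest in clone 4, and the laminin sum highest in clone 2. These sums are dominated by the leading chains and were not tested.

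**Figure D3:**
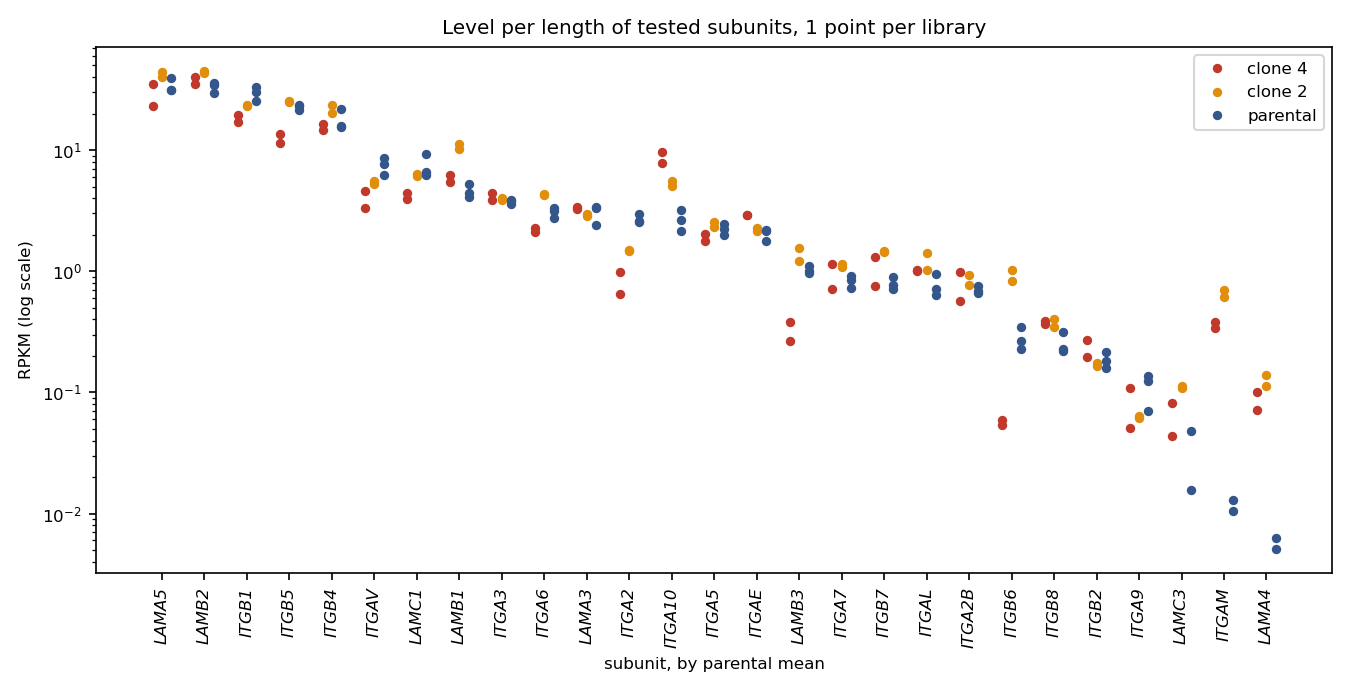
RPKM (log axis) of the 27 tested subunits in each clone 4, clone 2 and parental library, ordered by the parental mean; each point is a library, and libraries with 0 counts (parental replicate 1 for ITGAM, LAMA4 and LAMC3) cannot be drawn. LAMA5 and LAMB2 lie at the top in every group, and ITGA10 lies above ITGA2 in the clones.

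The 8 subunits that were not tested had at most 39 counts over the 7 libraries and at most 10 in any library. Those not named above are ITGA4, with 0 counts in every library, which allows up to 0.0306 CPM over all libraries together, ITGA8 with 6 counts and ITGAX with 5. ITGA4 is the other partner of ITGB7 and of ITGB1 in lymphocytes, and ITGAX is a myeloid partner of ITGB2. At this depth no difference in these 8 was tested, and small ones could not be seen. ITGA1, which overlaps another gene as stated above, was at 0.27 and 0.08 CPM in clone 4 and 0.77 and 0.59 in clone 2, against 0.17, 0.42 and 0.44 in parental cells. Both clone 2 libraries thus lay above the others, on few counts.

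Around these subunits, 4 lists of interacting genes were examined, with the share of all genes called in the same direction given beside each count. Of 29 tested genes for integrin activation and the adhesion site (32 listed), 7 were higher and 10 lower in clone 4 (22.1% and 22.3% of all genes), and 9 were higher and 4 lower in clone 2 (21.7% and 20.8%). The 10 lower in clone 4 were 6 without clone 4 replicate 1 or parental replicate 1. The median log2 fold change was -0.07 in clone 4 and 0.08 in clone 2, near that of all genes. FLNA, an actin crosslinker that binds beta chain tails, was at 37.6 ± 1.2 CPM in clone 4 (SD, n = 2) and 149.9 ± 0.5 in clone 2 (SD, n = 2), against 424 ± 39 in parental cells (SD, n = 3). Its log2 fold change was -3.49 in clone 4 (SE 0.12, edgeR adjusted p = 1.12e-10) and -1.50 in clone 2 (SE 0.11, edgeR adjusted p = 1.67e-07). FERMT1, an epithelial kindlin that activates integrins, was also lower in both, at -1.84 in clone 4 and -0.69 in clone 2, the second lost without clone 2 replicate 2 (edgeR adjusted p = 0.0751). PARVB, an actin-linked partner of integrin-linked kinase, was higher in both, at 1.56 in clone 4 and 1.48 in clone 2. NEDD9, a scaffold of adhesion signalling, was at 1.85 ± 0.49 CPM in clone 4 (SD, n = 2) and 9.09 ± 0.67 in clone 2 (SD, n = 2), against 1.73 ± 0.16 in parental cells (SD, n = 3), and was called in clone 2 (log2 fold change 2.39, edgeR adjusted p = 1.38e-06).

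Of 6 tested hemidesmosome and tetraspanin partners (7 listed), 1 was higher and 3 lower in clone 4 (22.1% and 22.3% of all genes), and 0 were higher and 1 lower in clone 2 (21.7% and 20.8%). In clone 2, 1 was higher at an unadjusted edgeR p below 0.05 and 0 by DESeq2, and 2 were called higher without parental replicate 3. DST, the plakin that ties ITGB4 complexes to keratin, was at 18.1 ± 0.6 CPM in clone 4 (SD, n = 2) and 43.6 ± 0.8 in clone 2 (SD, n = 2), against 48.7 ± 7.1 in parental cells (SD, n = 3). Its log2 fold change was -1.43 in clone 4 (SE 0.13, edgeR adjusted p = 2.27e-06) and -0.16 in clone 2 (SE 0.12, edgeR adjusted p = 0.323). The tetraspanin CD82, a suppressor of metastasis, was lower in clone 4 (-0.65, SE 0.11, edgeR adjusted p = 0.000301). CD151, the tetraspanin that binds laminin receptors, was lower in both, at -0.31 in clone 4 and -0.37 in clone 2. The clone 4 call of CD151 was lost without clone 4 replicate 1 (0.158) or parental replicate 2 (0.0509), and the clone 2 call without clone 2 replicate 1 (0.0543) or 2 (0.112). CD81 was higher in clone 4 at 0.31, lost without clone 4 replicate 2 (0.0919), parental replicate 1 (0.0958) or clone 2 replicate 1 (0.0591) or 2 (0.057). It was at 0.23 in clone 2 and not called, but called at 0.26 without parental replicate 3 (edgeR adjusted p = 0.044).

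Of 16 tested basement membrane partners and other laminin receptors (24 listed), 6 were higher and 5 lower in clone 4 (22.1% and 22.3% of all genes), and 11 were higher and 2 lower in clone 2 (21.7% and 20.8%). Their median log2 fold change was 0.12 in clone 4 and 0.70 in clone 2. Without clone 4 replicate 2 the counts in clone 4 were 3 higher and 3 lower, and without parental replicate 2 or 3 or either clone 2 library 1 was lower in clone 2. NTN4, a netrin that binds laminin gamma chains, was at 8.64 ± 1.24 CPM in clone 4 (SD, n = 2) and 47.4 ± 0.5 in clone 2 (SD, n = 2), against 3.59 ± 0.92 in parental cells (SD, n = 3). This was a log2 fold change of 1.27 in clone 4 (SE 0.19, edgeR adjusted p = 0.000157) and 3.73 in clone 2 (SE 0.17, edgeR adjusted p = 1.67e-09). HSPG2, the basement membrane proteoglycan perlecan, was higher at 0.53 in clone 4 and 1.41 in clone 2, the first lost without clone 4 replicate 2 (0.0568). The heparan sulfate proteoglycan SDC2 was lower in clone 4 (-0.42) and higher in clone 2 (1.83), and its clone 4 call was lost without clone 4 replicate 2 (0.0767) or parental replicate 1 (0.0643). NTN1, a guidance cue related to laminins, was lower in both, at -0.69 in clone 4 and -0.94 in clone 2.

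Beside the basement membrane genes, the tested fibroblast markers were higher in clone 2, while in clone 4 only COL1A1 lay above parental cells. The median log2 fold change of the 4 tested was -1.08 in clone 4 and 2.63 in clone 2. Of 4 tested, 4 were called higher in clone 2 (21.7% of all genes were) and 1, COL1A1, in clone 4 (22.1% of all genes). COL3A1 and LUM passed the filter on low counts through clone 2 alone, which favours a higher call there. The count in clone 2 is therefore not comparable with the share of all genes. The 9 fibroblast and mesenchymal markers summed to 72.2 and 105 CPM in clone 4 and 215 and 238 in clone 2, against 40.4 to 43.7 in parental cells, and most of each sum was COL1A1. COL1A1, a fibrillar collagen chain, had 1039 and 1248 counts in clone 4 and 1533 and 2046 in clone 2, against 479 to 702 in parental cells. COL3A1 had 0 and 0 counts in clone 4 and 1209 and 1499 in clone 2, against 0, 1 and 0 in parental cells. The proteoglycan genes LUM and DCN were the other two called in clone 2, DCN not by DESeq2 (adjusted p = 0.064), with LUM at 2 and 0 counts in clone 4 and 33 and 60 in clone 2, against 3, 4 and 9 in parental cells. Among the markers not tested FAP had 0 counts everywhere, PDGFRA and PDGFRB had 0 or 1, COL1A2 had at most 5 and THY1 at most 23. The part of such transcripts in the laminin and basement membrane differences was not tested.

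Of 18 tested integrin ligands other than laminins (28 listed), 4 were higher and 8 lower in clone 4 (22.1% and 22.3% of all genes), and 3 were higher and 5 lower in clone 2 (21.7% and 20.8%). The 8 lower in clone 4 were 3 without clone 4 replicate 2, and the 5 lower in clone 2 were 2 without clone 2 replicate 1 and 3 without its replicate 2. TNC, the matrix protein tenascin, was at 1.24 ± 0.58 CPM in clone 4 (SD, n = 2) and 28.7 ± 0.4 in clone 2 (SD, n = 2), against 0.336 ± 0.101 in parental cells (SD, n = 3). It passed the filter on low counts through the clones alone, which favours a higher call in them. Its log2 fold change was 6.41 in clone 2 (SE 0.25, edgeR adjusted p = 4.69e-10) and 1.92 in clone 4 (SE 0.42, edgeR adjusted p = 0.00212), and 1.32 without clone 4 replicate 1 (0.071). ICAM1, the ligand of ITGAL and ITGAM with ITGB2, was at 25.3 ± 3.0 CPM in clone 4 (SD, n = 2) and 30.3 ± 0.9 in clone 2 (SD, n = 2), against 3.84 ± 1.26 in parental cells (SD, n = 3). It was higher by 2.72 in clone 4 (SE 0.19, edgeR adjusted p = 1.85e-07) and 2.97 in clone 2 (SE 0.19, edgeR adjusted p = 6.84e-08). CYR61, a matricellular ligand of ITGAV pairs, was higher by 0.52 in clone 4 and 1.53 in clone 2.

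JAM2, a junction protein that can bind integrins, was at 4.201 ± 1.927 CPM in clone 4 (SD, n = 2) and 2.03 ± 0.22 in clone 2 (SD, n = 2), against 9.45 ± 4.25 in parental cells (SD, n = 3). It was called lower in clone 4 (log2 fold change -1.14, edgeR adjusted p = 0.0376) and clone 2 (-2.20, edgeR adjusted p = 0.00252). Leaving out any library other than parental replicate 3 lost the clone 4 call, at an edgeR adjusted p of 0.0504 to 0.309. In clone 4 the value became -1.74 when its replicate 1 was left out and -0.76 when its replicate 2 was. The clone 2 call was lost without clone 2 replicate 2 (0.05).

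**Figure D4:**
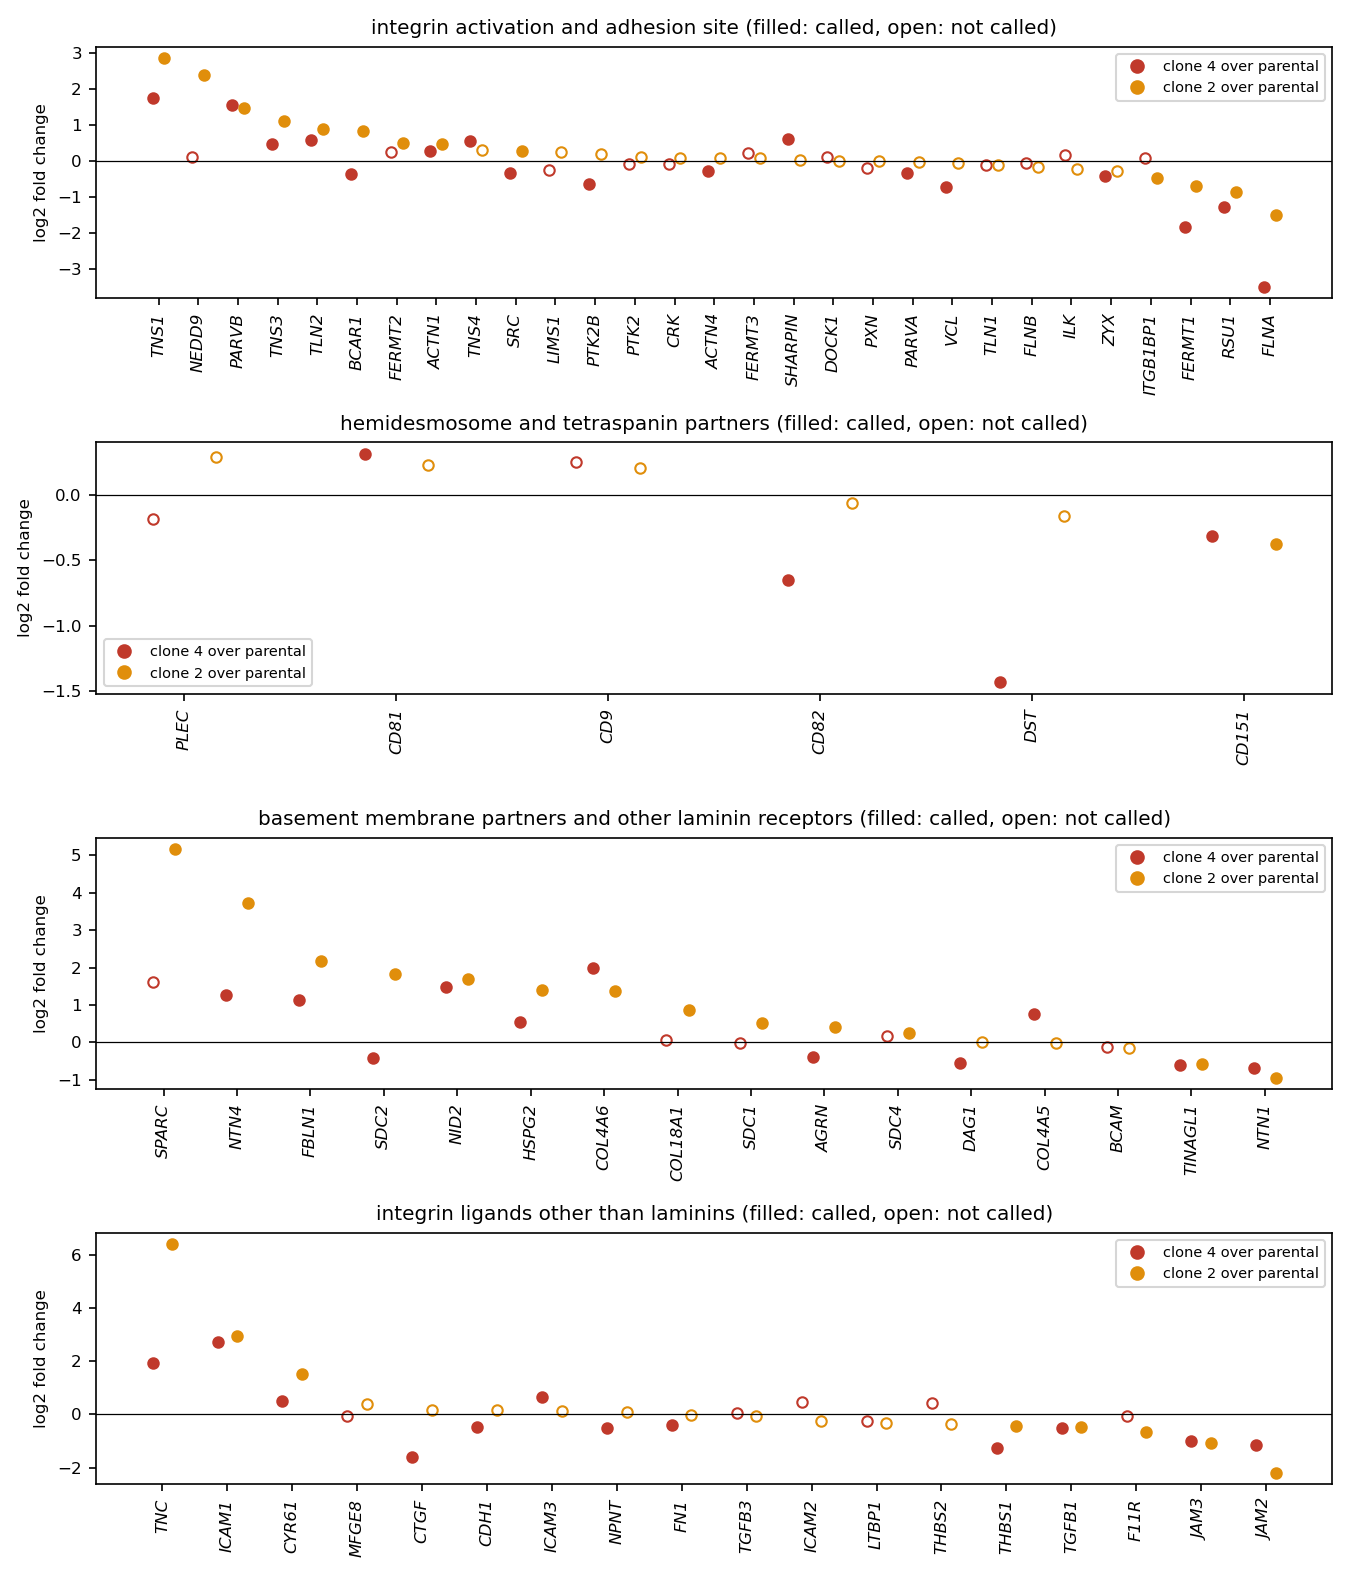
log2 fold change over parental cells (vertical axis) of the tested genes of the 4 lists of interacting genes, in clone 4 and clone 2; filled points have an adjusted p below 0.05 and genes are ordered by the clone 2 value. FLNA is the lowest adhesion site gene in both clones, at -3.49 in clone 4 and -1.50 in clone 2, and TNC and NTN4 are far higher in clone 2 than in clone 4.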

How the data were processed

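For the 7 libraries the authors deposited a table of raw counts by Ensembl gene and symbol. The submitters' processing notes name FastQC, CASAVA, STAR and the hg19 build; the sources used here name no counting program, annotation release or strand setting. Of the 63677 genes, 6724 had no symbol and held 1.02% to 1.41% of counts.

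Counts were fitted with edgeR 4.0.16 (R 4.3.3): filterByExpr with a minimum count of 10, TMM scaling, a quasi-likelihood model of 3 group means over all 7 libraries with robust spread, and Benjamini-Hochberg adjustment over 17502 genes at 0.05. The common biological coefficient of variation was 0.0997. Standard errors come from the quasi-F statistic. RPKM divides TMM-scaled CPM by the GENCODE exon union on GRCh38, so lengths are of another build and are approximate. Ratio intervals and floors (3 counts) cover counting error only. Alternatives were RLE scaling, DESeq2 1.42.0, 2 other filters, a test against 1.5-fold, the compared groups alone, a replicate block and leaving out each library; for the lists of interacting genes and the cell type markers they were added after seeing the data. A fit that leaves 1 library in a clone assumes that it varies like the other groups.

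The subunits and lists were chosen with earlier results of these data known. Full values are given for subunits called with at least a 2-fold difference, for their partners, and for every other called subunit; from each list, up to 4 called genes with the largest fold changes and a mean of at least 2 log2 CPM are named. The fit was tested on simulated data.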

Additional observations from a re-analysis of the deposited data

Results flagged for a closer look

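In 14 subunits the difference between the effects of the clones was itself past the threshold in edgeR's quasi-likelihood test of clone 2 against clone 4. The log2 fold change of clone 2 over clone 4 was 4.02 for ITGB6, 2.07 for LAMB3, 1.01 for ITGB5, 0.97 for ITGA6, 0.87 for ITGAM, 0.87 for LAMB1, 0.85 for ITGA2, 0.58 for LAMC1, 0.53 for LAMA5, 0.5 for ITGB4, 0.46 for ITGAV, 0.36 for ITGB1, -0.39 for ITGAE and -0.73 for ITGA10. The subunits ITGB6 and ITGA6 were called on opposite sides of parental cells. The calls of ITGAE, ITGAM, ITGAV, ITGB1, ITGB4, LAMA5 and LAMC1 between the clones were lost without at least 1 library.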

How the results depend on the processing

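Of 42 calls of subunits over the 3 comparisons, 24 were kept in every alternative that tested them other than the test against 1.5-fold, 17 of them in that test too, and 18 were lost without some library. None turned round. The block cost 3 calls, DESeq2 6, RLE scaling 2 and the stricter filter 2 (ITGAE between the clones, and LAMC3 in clone 2, no longer tested), and 8 subunit comparisons gained a call somewhere. Tested against 1.5-fold, 3 subunits were higher and 5 lower in clone 4, 5 and 0 in clone 2, and 4 and 0 in clone 2 against clone 4, with 2382, 2177 and 1393 genes called in all. Without 1 library, clone 4 had 4 to 6 higher and 8 to 8 lower, clone 2 had 6 to 12 higher and 1 to 3 lower, and clone 2 against clone 4 had 7 to 13 higher and 1 to 2 lower. All genes called were then 5355 to 8060, 4291 to 7988 and 3289 to 7348, lowest for clone 2 and between the clones without clone 2 replicate 2. With no filter beyond 1 count, with the stricter filter and with DESeq2, 1 subunit (ITGA10) was lower between the clones.

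The labels' replicate numbers were tried as a block. Deviations from the group means correlated at 0.186 and 0.115 between same-numbered clone 4 and parental libraries, 0.00915 and -0.0148 for clone 2 and parental, and -0.0776 between the clones, and with only 2 such pairs the libraries share only a number. For clone 2 the numbers are those of the descriptions, while the titles of its libraries end in 4 and 6, and its pairs and block values rest on that choice. With the block 6 subunits were higher and 8 lower in clone 4, 12 and 2 in clone 2, and 14 and 2 between the clones. Subunits with few counts (ITGAM, LAMA4, LAMC3, ITGB6 in clone 4) are limited by depth, and RPKM by exon lengths of another build.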
